A study of Mus musculus with 16 samples.

Results

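The Ragulator complex, its Rag and Rheb GTPases, the core of mTOR complex 1 (mTORC1) and the kinase AKT2 are described here in splenic myeloid-derived suppressor cells (MDSCs) of melanoma-bearing mice. The 10 genes were chosen by name, with earlier results of these data known: *Lamtor1* to *Lamtor5*, *Rraga*, *Rheb*, *Mtor*, *Rptor* and *Akt2*. All 10 were found among the 24421 gene symbols counted in each library, and all 10 passed the filter on low counts in every comparison. mTORC1 is a protein kinase complex that raises protein and lipid synthesis and holds back autophagy when amino acids and growth factors are plentiful. The Ragulator holds the Rag GTPases on the lysosome surface, the Rags bring mTORC1 there when amino acids are present, and Rheb, which AKT frees from its inhibitor TSC, switches the kinase on. In myeloid cells the pathway is known for setting growth, glucose use and cytokine output.

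mRNA was measured by QuantSeq 3′ sequencing, which reads the 3′ end of each transcript, in monocytic (M-MDSC) and granulocytic (G-MDSC) cells. The 16 libraries came from 8 C57BL/6 mice, all carrying subcutaneous tumors of the B16.F10 melanoma line: 4 wild-type (WT) mice and 4 *Nlrp3-/-* mice, each giving 1 library of each subset, as the spleen identifiers in the sample descriptions show. In the *Nlrp3-/-* mice an EGFP cassette with an SV40 polyadenylation signal sits at the start codon in exon 2 of *Nlrp3*, the sensor of the NLRP3 inflammasome, in every cell of the host, while the implanted tumor cells keep the gene. M-MDSCs were gated as CD11b high Ly6C+ Ly6G- and G-MDSCs as CD11b high Ly6C- Ly6G+; the study's mice were young animals matched for sex and age, and the labels give neither the age nor the day of sorting of each mouse. The question was what loss of *Nlrp3* changes in each subset.

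Libraries held 2295967 to 6079866 counts. Levels are given as CPM, a gene's counts scaled to the TMM-normalized size of its library, with TMM taken over the 16 libraries, with mean ± SD over 4 mice. *Nlrp3* itself was at 65.6 ± 22.5 CPM in WT and 0.981 ± 0.612 CPM in *Nlrp3-/-* M-MDSCs, and at 296 ± 34.2 and 9.39 ± 3.76 CPM in G-MDSCs, in the direction of the labels. Summed over 8 M-MDSC markers the M-MDSC libraries had 4044 to 7244 CPM and the G-MDSC libraries 1436 to 1772 CPM, and over 8 G-MDSC markers the ranges were 1290 to 6784 and 109400 to 169200 CPM. In each genotype all 8 G-MDSC markers were called higher in G-MDSCs, but of the M-MDSC markers 5 were called lower there and 1 higher. *Itgam*, which is in both lists, was at 192 CPM in WT M-MDSCs and 545 CPM in WT G-MDSCs, and *Cd14* at 207 and 206 CPM. The 6784 CPM belonged to WT M-MDSC replicate 2, which therefore stood apart in neutrophil transcripts; the calls lost without it are named beside the results. The gene for Ly6G, part of the gate, was not analysed here.

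The members lie on chromosomes 3, 4, 5, 7 and 11 of the mouse genome (mm10). *Lamtor1*, whose product anchors the Ragulator in the lysosome membrane, runs on chromosome 7 from 101905904 to 101926675 (plus strand), and *Akt2*, a serine/threonine kinase that acts in insulin and PI3K signaling, on the same chromosome from 27591552 to 27640826 (plus strand). *Rraga*, which encodes the Rag A GTPase, spans 86575668 to 86577285 on chromosome 4 (plus strand). *Lamtor1* overlaps *Tomt* and *Lrrc51*, *Mtor* overlaps *Angptl7* and *Rptor* overlaps *Rptoros*, each on the opposite strand, and the authors counted reads by strand.

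Promoter windows from RefSeq (GRCm38.p6, 250 bases before to 50 bases after an annotated start) matched 9 of the 10 genes, all but *Lamtor3*. The E-box CACGTG, read the same on both strands and bound by factors such as MYC and TFEB, was searched, together with TCACGTGA, the core of the CLEAR element of lysosomal genes, which contains the E-box. CACGTG was found in the windows of 3 of the 9 genes, *Lamtor1*, *Lamtor4* and *Rheb*, and in 8.09% of the 27025 genes with a window. TCACGTGA was found in none of the 12 member windows and in 0.974% of all 32851 windows. The windows of the 3 genes that rose in *Nlrp3-/-* mice are shown first, then that of *Lamtor4*, with CACGTG in capitals: *Lamtor1* at chr7:101905587-101905886, *Rraga* at chr4:86575423-86575722, the most upstream of the 4 *Akt2* windows at chr7:27591302-27591601, and *Lamtor4* at chr5:138255232-138255531, each on the plus strand.
Lamtor1: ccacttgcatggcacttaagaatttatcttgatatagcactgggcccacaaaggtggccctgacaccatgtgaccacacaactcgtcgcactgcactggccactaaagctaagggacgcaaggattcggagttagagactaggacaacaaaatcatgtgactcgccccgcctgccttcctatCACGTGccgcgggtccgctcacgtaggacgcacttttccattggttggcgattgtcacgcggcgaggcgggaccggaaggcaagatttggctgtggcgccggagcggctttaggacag
Rraga: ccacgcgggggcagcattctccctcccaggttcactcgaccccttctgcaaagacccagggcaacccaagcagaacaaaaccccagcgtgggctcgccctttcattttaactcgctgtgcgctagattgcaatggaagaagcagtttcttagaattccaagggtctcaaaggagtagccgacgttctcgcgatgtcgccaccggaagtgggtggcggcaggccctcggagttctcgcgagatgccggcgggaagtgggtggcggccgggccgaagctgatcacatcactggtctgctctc
Akt2: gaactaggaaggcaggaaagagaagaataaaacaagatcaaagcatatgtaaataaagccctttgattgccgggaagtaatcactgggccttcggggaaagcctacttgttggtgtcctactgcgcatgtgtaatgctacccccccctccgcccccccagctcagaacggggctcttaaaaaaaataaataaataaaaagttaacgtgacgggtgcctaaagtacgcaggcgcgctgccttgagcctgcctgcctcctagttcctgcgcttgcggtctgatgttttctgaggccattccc
Lamtor4: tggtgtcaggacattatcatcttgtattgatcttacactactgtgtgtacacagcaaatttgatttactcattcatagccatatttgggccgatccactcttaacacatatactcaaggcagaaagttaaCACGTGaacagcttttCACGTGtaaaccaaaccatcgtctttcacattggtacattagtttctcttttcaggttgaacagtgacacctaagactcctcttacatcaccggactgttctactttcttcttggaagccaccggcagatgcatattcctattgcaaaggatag
The motif starts 68 bases before the start site of *Lamtor1* and 120 and 104 bases before that of *Lamtor4*. These letters occur in 1 of the 3 genes that rose, and a match describes the sequence only.

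In the genotype comparisons 3 of the 10 genes rose in *Nlrp3-/-* mice in at least 1 subset and none fell. *Lamtor1* and *Akt2* rose in both subsets, by 1.67-fold and 1.77-fold in M-MDSCs and 2.17-fold and 1.81-fold in G-MDSCs, and *Rraga* rose in G-MDSCs by 1.97-fold. A gene was called when it passed an adjusted p of 0.05 (edgeR quasi-likelihood test, Benjamini-Hochberg over all genes tested) with a fold change over 1.5. The fold changes come from fits normalized within each comparison and can differ slightly from ratios of the levels given.

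**Figure D1:**
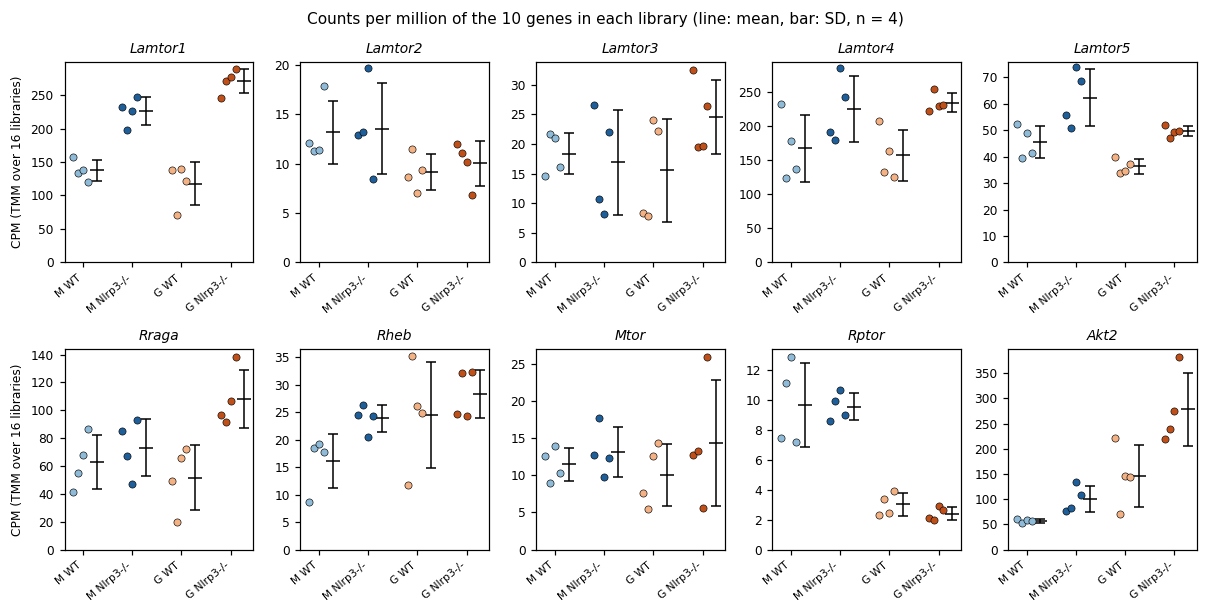
CPM of the 10 genes in each of the 16 libraries, by subset (M, M-MDSCs; G, G-MDSCs) and genotype, on linear axes from 0. Points are libraries, horizontal lines group means and bars SD (n = 4). *Lamtor1* was higher in every *Nlrp3-/-* library than in any WT library of its subset, and *Rptor* was lower in every G-MDSC library than in any M-MDSC library.

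*Lamtor1* had the smallest p of the 10 members in both subsets. In WT M-MDSCs its level was 157, 134, 139 and 119.9 CPM (138 ± 15.5 CPM, SD, n = 4), and in *Nlrp3-/-* M-MDSCs 233, 197, 226 and 247 CPM (226 ± 20.8 CPM, SD, n = 4). In WT G-MDSCs it was 138, 71.4, 139.8 and 121 CPM (118 ± 31.9 CPM, SD, n = 4), and in *Nlrp3-/-* G-MDSCs 246, 271, 276 and 288.5 CPM (271 ± 17.9 CPM, SD, n = 4). The genotypes did not overlap in either subset, while the WT libraries of the 2 subsets overlapped each other, and G-MDSC WT replicate 2 was the lowest of all 16. The log2 fold change was 0.74 (SE 0.15, adjusted p = 0.0110) in M-MDSCs and 1.12 (SE 0.19, adjusted p = 0.00145) in G-MDSCs. Without G-MDSC WT replicate 2 the latter was 0.95 (adjusted p = 0.00115). Without WT M-MDSC replicate 2 the M-MDSC change was 0.74 (adjusted p = 0.0405). In M-MDSCs the call was lost without *Nlrp3-/-* replicate 4 (0.66, adjusted p = 0.0513) and after correction for GC content and transcript length (0.44, adjusted p = 0.0778), and in G-MDSCs the corrected change was 0.74 (adjusted p = 0.0176). With a block by replicate number added to this correction the G-MDSC call was lost as well (0.77, adjusted p = 0.0602).

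The other Ragulator subunits did not pass the test in either subset, though *Lamtor4* in G-MDSCs did without WT replicate 1 (0.64, adjusted p = 0.0142) and with library size as the only scale (0.62, adjusted p = 0.0219). *Lamtor4* and *Lamtor5*, which with *Lamtor2* and *Lamtor3* form the paired roadblock-fold proteins that *Lamtor1* wraps around, were nearest to it. *Lamtor4* was at 233, 123.5, 179 and 137 CPM in WT and 192, 180.2, 286 and 243 CPM in *Nlrp3-/-* M-MDSCs. In G-MDSCs it was at 208, 133, 163 and 125 CPM in WT and 223, 255, 230.0 and 231 CPM in *Nlrp3-/-* mice. These groups overlapped in M-MDSCs (log2 fold change 0.45, SE 0.22, adjusted p = 0.195) and did not overlap in G-MDSCs (0.49, SE 0.17, adjusted p = 0.0570). *Lamtor5* was at 52.4, 39.4, 49.1 and 41.5 CPM in WT and 55.8, 50.8, 73.7 and 68.6 CPM in *Nlrp3-/-* M-MDSCs. Its G-MDSC values were 39.7, 33.8, 34.4 and 37.4 CPM in WT and 52.0, 47.15, 49.3 and 49.8 CPM in *Nlrp3-/-* mice, which also did not overlap. The log2 fold changes of *Lamtor5* were 0.47 (SE 0.17, adjusted p = 0.0903) and 0.36 (SE 0.17, adjusted p = 0.159).

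*Lamtor2* and *Lamtor3* were low. *Lamtor2* lay between 6.82 and 19.6 CPM in all libraries, and its genotype differences were 0.07 in M-MDSCs (95% interval -0.53 to 0.68) and 0.05 in G-MDSCs (-0.64 to 0.75) on the log2 scale. *Lamtor3* lay between 7.78 and 32.6 CPM, with a coefficient of variation of up to 55.9% within a group. Its differences were -0.07 (95% interval -0.84 to 0.70) and 0.56 (-0.22 to 1.34), so that changes of 1.5-fold in either gene were not excluded by the spread of 4 mice.

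Of the 2 GTPases, *Rraga* passed in G-MDSCs. Its level was 49.4, 19.97, 65.4 and 72.0 CPM in WT (51.7 ± 23.2 CPM, SD, n = 4) and 96.3, 91.8, 107 and 138 CPM in *Nlrp3-/-* G-MDSCs (108 ± 20.8 CPM, SD, n = 4). The M-MDSC values were 41.1, 55.0, 67.6 and 86.7 CPM in WT and 84.9, 67.4, 47.0 and 93.3 CPM in *Nlrp3-/-* mice. The groups did not overlap in G-MDSCs and overlapped over most of their range in M-MDSCs. The log2 fold change was 0.98 (SE 0.30, adjusted p = 0.0343) in G-MDSCs and 0.27 (SE 0.26, adjusted p = 0.517) in M-MDSCs. The G-MDSC call was lost without WT replicate 1 (adjusted p = 0.0627) and without *Nlrp3-/-* replicate 2 (0.0607), 3 (0.0644) or 4 (0.107), and without WT replicate 2, the lowest library, the change was 0.72 (adjusted p = 0.0338).

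*Rheb* was at 8.73, 18.4, 19.3 and 17.8 CPM in WT and 24.55, 26.3, 20.5 and 24.4 CPM in *Nlrp3-/-* M-MDSCs. These groups did not overlap, and the log2 fold change of 0.61 (SE 0.25, adjusted p = 0.130) did not pass. It did in 1 alternative, chosen after seeing the data, of offsets for GC content and length from the longest transcript of any type (0.85, adjusted p = 0.0470), and not with those from the protein-coding transcript (0.70, adjusted p = 0.0931). In G-MDSCs *Rheb* ranged from 11.7 to 35.2 CPM in WT and from 24.2 to 32.3 CPM in *Nlrp3-/-* mice (0.12, SE 0.29, adjusted p = 0.816). The WT range enclosed the *Nlrp3-/-* one.

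*Mtor*, the catalytic subunit, and *Rptor*, which encodes the RAPTOR scaffold that binds the Rags and mTORC1 substrates, did not pass in either genotype comparison. *Mtor* was between 5.42 and 26.0 CPM in all libraries, and its differences were 0.22 in M-MDSCs (95% interval -0.32 to 0.77) and 0.42 in G-MDSCs (-0.51 to 1.36). *Rptor* differed by -0.01 in M-MDSCs (95% interval -0.57 to 0.55) and by -0.40 in G-MDSCs (-1.46 to 0.66), where each library held only 7 to 14 *Rptor* counts.

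*Akt2* was at 60.9, 52.2, 58.7 and 57.6 CPM in WT (57.3 ± 3.72 CPM, SD, n = 4) and at 76.55, 82.2, 134 and 107 CPM in *Nlrp3-/-* M-MDSCs (99.98 ± 26.2 CPM, SD, n = 4). In G-MDSCs it was at 221, 69.7, 146 and 145 CPM in WT (145 ± 61.6 CPM, SD, n = 4) and at 219, 239.7, 274 and 381 CPM in *Nlrp3-/-* mice (278 ± 72.3 CPM, SD, n = 4). The M-MDSC groups did not overlap, whereas the highest WT and the lowest *Nlrp3-/-* G-MDSC library met. The log2 fold change was 0.82 (SE 0.18, adjusted p = 0.0163) in M-MDSCs and 0.86 (SE 0.27, adjusted p = 0.0416) in G-MDSCs. In M-MDSCs the call was lost without WT replicate 2 (adjusted p = 0.0538), WT replicate 4 (0.0521) or *Nlrp3-/-* replicate 4 (0.0709), and in a model of all 16 libraries (0.0567). In G-MDSCs it was lost without WT replicate 2 (0.0705), 3 (0.0630) or 4 (0.0818), without *Nlrp3-/-* replicate 2 (0.0708), 3 (0.0749) or 4 (0.140), and after the GC and length correction, where the change was 0.81 (0.0572).

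**Figure D2:**
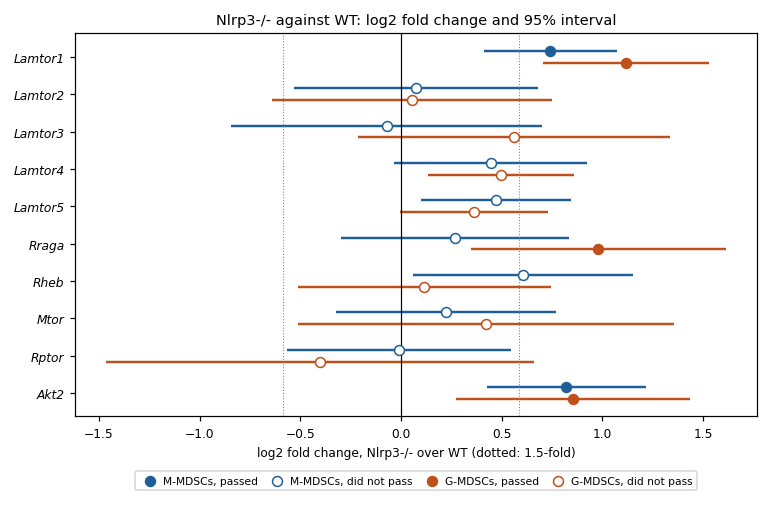
Log2 fold change (x axis, *Nlrp3-/-* over WT) of the 10 genes in M-MDSCs and G-MDSCs; lines are 95% intervals, filled points passed both thresholds and dotted lines mark 1.5-fold. *Lamtor1* (0.74 and 1.12) and *Akt2* (0.82 and 0.86) passed in both subsets and *Rraga* (0.98) in G-MDSCs.

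In M-MDSCs 2 of the 10 genes were called, both higher, against 10.6% of the 9986 genes tested in either direction, 3.51% called higher and 7.1% called lower. At an unadjusted p under 0.05 there were 4 members (30.1% of all genes). The groups did not overlap for 3 members, all higher in *Nlrp3-/-* mice (*Lamtor1*, *Rheb* and *Akt2*), against 19.3% of all genes in either direction, 7.59% higher and 11.7% lower. The median log2 fold change of the members was 0.36, against 0.07 for all genes, and 8 of the 10 were above 0, against 55% of all genes. In G-MDSCs 3 of the 10 were called, all higher, against 16.4% of 9273 genes in either direction, 4.7% higher and 11.7% lower, and 4 members were under an unadjusted p of 0.05 (32.3% of all genes). There the groups did not overlap for 4 members (*Lamtor1*, *Lamtor4*, *Lamtor5* and *Rraga*), against 24.4% of all genes in either direction, 12% higher and 12.3% lower, with a median of 0.46 for the members and 0.03 for all genes. With 10 genes chosen by name these counts are small. By gene set enrichment the authors had reported mTORC1 signaling as reduced in *Nlrp3-/-* M-MDSCs, at an FDR above their own cutoff. Their discussion names an enrichment of mTOR signaling in these cells. In G-MDSCs they reported mTOR and AKT pathways as enriched among the genes that differed. They had also reported *Lamtor1* and *Akt2* as increased in *Nlrp3-/-* M-MDSCs from these same data, and the members were chosen with earlier results known. The counts and medians of the members therefore describe the list and do not test it against all genes. Calls over all genes were lower in *Nlrp3-/-* mice for 66.9% in M-MDSCs (79.2% without WT replicate 2) and 71.4% in G-MDSCs; with library size alone as the scale these were 45.4% and 51.9%, and in G-MDSCs 60.9% with upper-quartile scaling and 56.6% in a model of all 16 libraries.

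Markers of red pulp macrophages of the spleen moved in the same direction as these genes. Summed over 6 such markers (*C1qa*, *C1qb*, *C1qc*, *Vcam1*, *Spic* and *Cd5l*) the level was 42.2 to 63.2 CPM in WT and 123 to 251 CPM in *Nlrp3-/-* M-MDSCs, with 5 of 6 called higher. In G-MDSCs it was 77.1 to 211 CPM in WT and 352 to 518.5 CPM in *Nlrp3-/-* mice, with 6 of 6 called higher, and none of the 6 was at 0 in any group. Other markers moved as well. *Itgam*, the gene of the CD11b used in the gate, fell from 192 ± 41.1 to 115 ± 16 CPM in M-MDSCs and from 545 ± 47.4 to 295 ± 33.1 CPM in G-MDSCs (adjusted p = 0.0329 and 0.000632). Of the 7 G-MDSC markers tested in M-MDSCs, 2 were called higher and 1, *Itgam*, lower. Those that rose were *Retnlg* (31.4 ± 25.3 to 163.5 ± 102.9 CPM) and *Mmp9* (4.89 ± 4.55 to 20.6 ± 8.03 CPM). *S100a8* (log2 fold change -0.56), *S100a9* (-0.78), *Mmp8* (-0.008) and *Csf3r* (-0.059) did not pass. In G-MDSCs *Cxcr2* fell from 2605 ± 601 to 1155 ± 300.4 CPM. The B cell marker *Ms4a1* fell in both subsets, and *Csf1r* and the platelet marker *Itga2b* rose in G-MDSCs. The part of these markers in the rise of *Lamtor1*, *Akt2* and *Rraga* was not tested. In these bulk samples a change in the make-up of the sorted cells and a change of RNA per cell cannot be told apart.

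**Figure D3:**
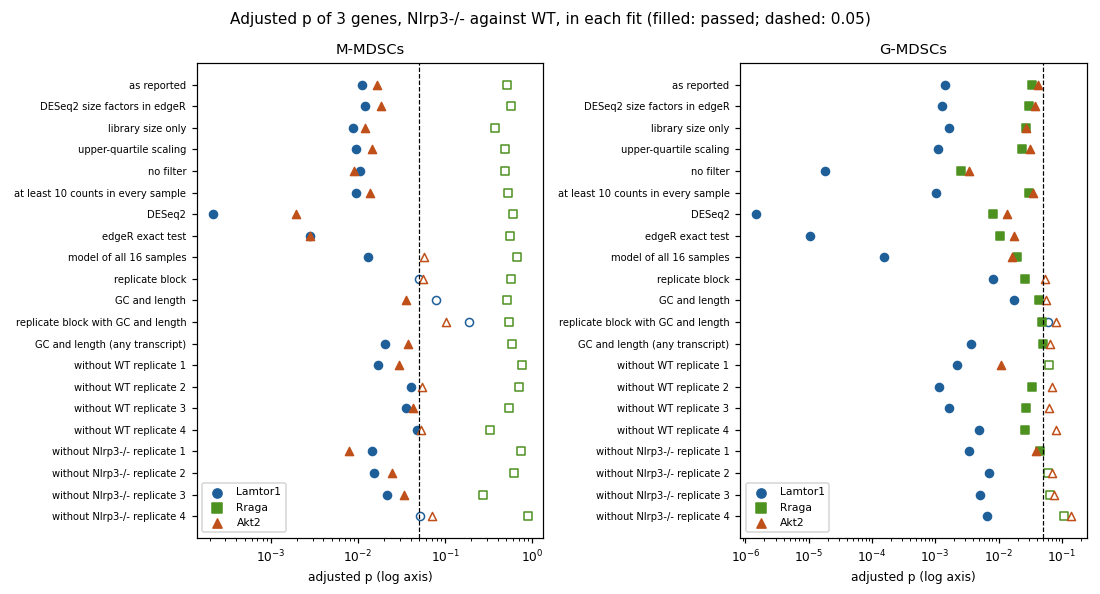
Adjusted p (x axis, log scale) of *Lamtor1*, *Rraga* and *Akt2* for *Nlrp3-/-* against WT in M-MDSCs (left) and G-MDSCs (right), 1 row for each fit; filled symbols passed both thresholds and the dashed line marks 0.05. *Lamtor1* in G-MDSCs passed in every fit that left out a library, and *Akt2* in G-MDSCs in 2 of 8.

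Whether the genotype effect differed between G-MDSCs and M-MDSCs was tested as an interaction in 1 model of all 16 libraries. It was called for 0 of the 10 members and for 3 of 10696 genes (0.028%; 0.0187% higher and 0.00935% lower) by edgeR, and for 0 members and 8 genes by DESeq2. At an unadjusted p under 0.05 there were 0 members and 480 genes (4.49%). The largest differences were those of *Rraga* (0.83 more in G-MDSCs, 95% interval -0.06 to 1.72), *Lamtor3* (0.76, -0.36 to 1.88) and *Lamtor1* (0.49, -0.04 to 1.01). For *Akt2* the difference was 0.14 (-0.63 to 0.90). This model held no term for the mouse, although each mouse gave a library of each subset. With a block by mouse the interaction was called for 4 of 10696 genes and 0 members. The call of *Rraga* in G-MDSCs alone is therefore not shown to be a difference between the subsets.

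**Figure D4:**
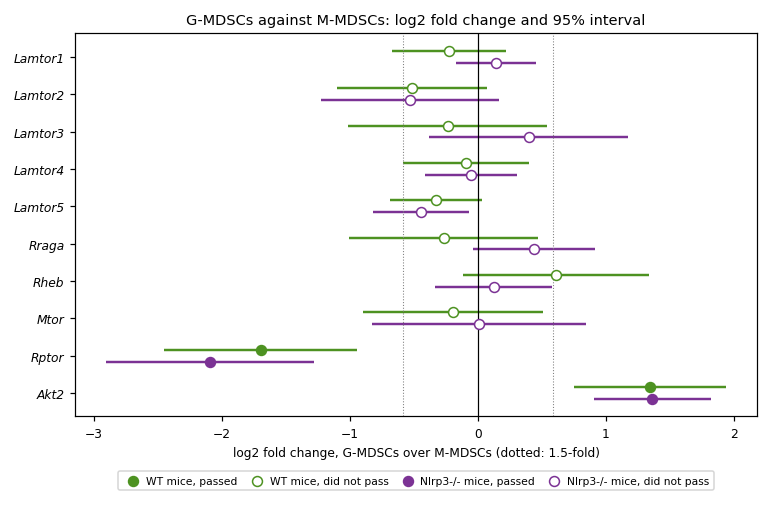
Log2 fold change (x axis, G-MDSCs over M-MDSCs) of the 10 genes in WT and *Nlrp3-/-* mice; lines are 95% intervals, filled points passed both thresholds and dotted lines mark 1.5-fold. *Akt2* was higher (1.34 and 1.36) and *Rptor* lower (-1.70 and -2.09) in G-MDSCs of both genotypes.

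Between the subsets *Akt2* and *Rptor* differed, in opposite directions and in both genotypes. *Akt2* was 2.54-fold higher in G-MDSCs than in M-MDSCs of WT mice (log2 fold change 1.34, SE 0.27, adjusted p = 0.00122) and 2.57-fold higher in *Nlrp3-/-* mice (1.36, SE 0.21, adjusted p = 9.91e-05). Every G-MDSC library lay above every M-MDSC library of its genotype. The 4 groups ran from WT M-MDSCs over *Nlrp3-/-* M-MDSCs and WT G-MDSCs to *Nlrp3-/-* G-MDSCs, and the 2 middle groups, 76.55 to 134 CPM and 69.7 to 221 CPM, overlapped. With library size as the only scale the WT call was lost (0.60, adjusted p = 0.0724), and that scale put the median of all genes at -0.79 in WT mice in place of -0.05.

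*Rptor* was at 7.43, 11.1, 12.8 and 7.20 CPM in WT M-MDSCs and 8.61, 9.895, 10.65 and 8.99 CPM in *Nlrp3-/-* M-MDSCs. In G-MDSCs it was at 2.34, 3.38, 2.42 and 3.89 CPM in WT and 2.08, 1.975, 2.90 and 2.62 CPM in *Nlrp3-/-* mice. No G-MDSC library reached the lowest M-MDSC library. The log2 fold change was -1.70 (SE 0.35, adjusted p = 0.00124) in WT and -2.09 (SE 0.38, adjusted p = 0.000349) in *Nlrp3-/-* mice, and it rests on 7 to 14 counts in each G-MDSC library against 21 to 79 in each M-MDSC library. With at least 10 counts asked of every library *Rptor* was no longer tested.

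These were 2 of the 10 members in each genotype, 1 higher and 1 lower, against 53.3% of 9739 genes called in WT mice (26.3% higher, 27.1% lower) and 51% of 10071 genes in *Nlrp3-/-* mice (23.7% higher, 27.4% lower). The groups did not overlap for the same 2 members, against 51.9% of all genes in WT mice (25.5% higher, 26.4% lower) and 50.2% in *Nlrp3-/-* mice (26.2% higher, 24% lower). At an unadjusted p under 0.05 there were 2 members in WT and 3 in *Nlrp3-/-* mice, against 61.6% and 59.1% of all genes. The members had median log2 fold changes of -0.23 in WT and 0.07 in *Nlrp3-/-* mice against -0.05 and -0.12 for all genes. *Lamtor5* reached an adjusted p of 0.0463 in *Nlrp3-/-* mice with a log2 fold change of -0.44, under the 1.5-fold minimum. Of all calls 50.8% were lower in G-MDSCs in WT and 53.6% in *Nlrp3-/-* mice. With library size as the only scale these became 81.3% and 81.5%, and with upper-quartile scaling 61.8% in WT mice. Library size alone called 8 members and 6227 of 9739 genes in WT mice, and 6 members and 6180 of 10071 genes in *Nlrp3-/-* mice. TMM factors were 1.20 to 1.46 in M-MDSCs and 0.722 to 0.804 in G-MDSCs.

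The rest of the pathway was followed in 8 lists of 90 genes, of which 88 were in the files. In M-MDSCs 80 were tested, 1 rose and 3 fell in *Nlrp3-/-* mice (5% called, against 10.6% of all genes, 3.51% higher and 7.1% lower). *Eif4ebp2*, a repressor of cap-dependent translation that mTORC1 switches off, fell from 105 ± 39.6 to 25.5 ± 14.2 CPM (log2 fold change -1.99, SE 0.42, adjusted p = 0.0131). *Gsk3b*, a kinase that AKT inhibits, fell from 191 ± 14.2 to 107 ± 30.8 CPM (-0.82, SE 0.19, adjusted p = 0.0196). *Prr5l*, which encodes a protein that binds mTORC2, fell by 0.62 on the log2 scale (adjusted p = 0.0413), and *Strada*, a partner of the kinase LKB1, rose by 0.67 (adjusted p = 0.0376). When each library was left out in turn, *Eif4ebp2* kept its call in all 8 fits, *Gsk3b* lost it in 1 (without *Nlrp3-/-* replicate 4), *Prr5l* in 6 and *Strada* in 7, among them the fit without WT replicate 2 (0.68, adjusted p = 0.0821). No call of the 4 held in every fit: with GC and length offsets *Gsk3b* was at -0.42 (adjusted p = 0.176) and *Prr5l* at -0.48 (adjusted p = 0.139), *Strada* was lost in the model of all 16 libraries (0.65, adjusted p = 0.0752) and *Eif4ebp2* with the replicate block (-2.10, adjusted p = 0.0508).

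**Figure D5:**
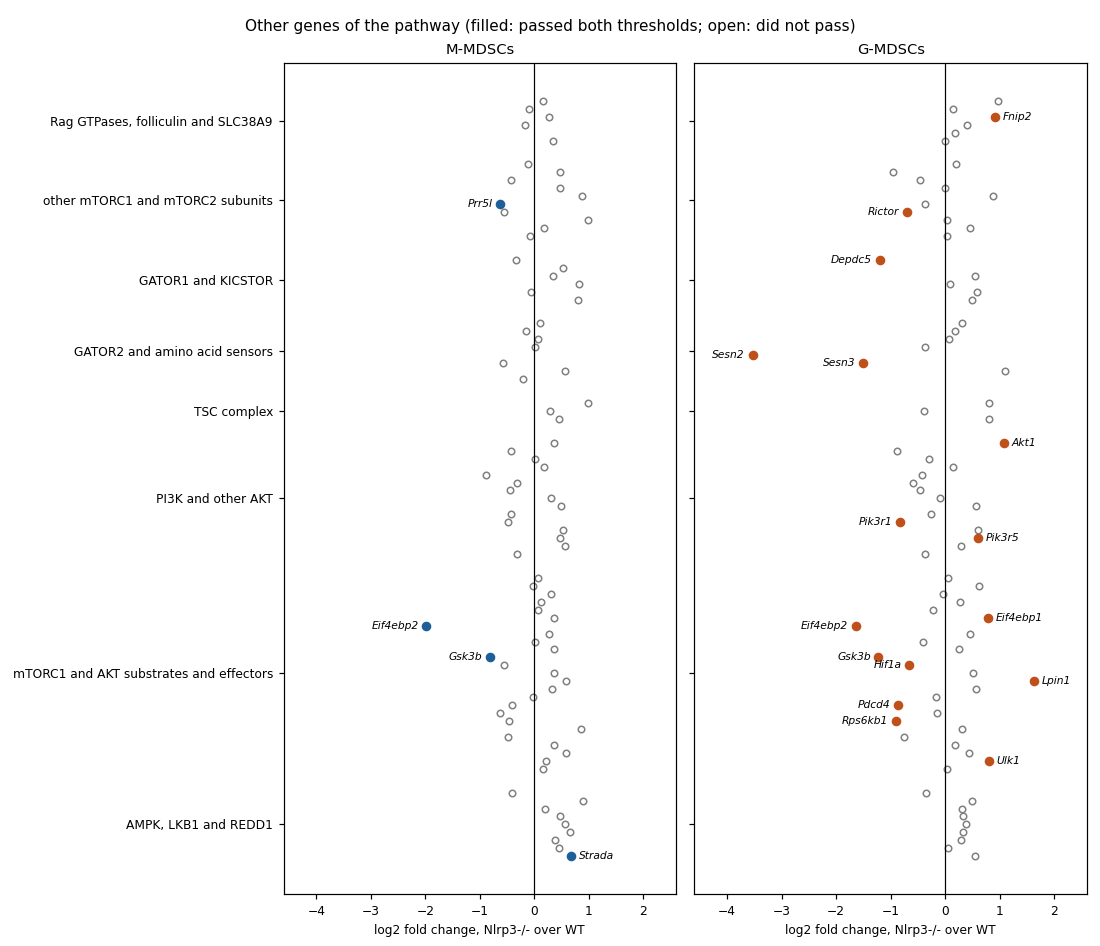
Log2 fold change (x axis, *Nlrp3-/-* over WT) of the tested genes of 8 pathway lists (y axis, 1 position for each gene) in M-MDSCs and G-MDSCs; filled, named points passed both thresholds. *Eif4ebp2* and *Gsk3b* were lower in both subsets, and *Sesn2* had the largest change, -3.54 in G-MDSCs.

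In G-MDSCs 80 were tested, 6 rose and 10 fell (20% called, against 16.4% of all genes, 4.7% higher and 11.7% lower). Among the amino acid sensors, *Sesn2*, a leucine sensor that restrains the pathway through GATOR2, fell from 39.8 ± 12.8 to 3.57 ± 2.48 CPM (log2 fold change -3.54, SE 0.48, adjusted p = 0.000269), and *Sesn3* fell by 1.51 on the log2 scale (adjusted p = 0.0204). *Depdc5*, a subunit of GATOR1, which turns the Rags off, fell by 1.20 (adjusted p = 0.0176), and *Fnip2*, a partner of folliculin, which acts on the Rags, rose from 34.8 ± 7.74 to 69.5 ± 11.4 CPM (0.92, SE 0.20, adjusted p = 0.00729). Of the PI3K and AKT list, *Akt1* rose from 296 ± 135 to 666 ± 50.4 CPM (1.08, SE 0.27, adjusted p = 0.0145), *Pik3r5* rose by 0.61 (adjusted p = 0.0314) and *Pik3r1* fell by 0.83 (adjusted p = 0.00438). *Rictor*, the scaffold of mTORC2, fell by 0.70 (adjusted p = 0.0262).

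Of the substrates and effectors in G-MDSCs 3 rose and 5 fell among 25 tested (32% called). Of all genes 16.4% were called, 4.7% higher and 11.7% lower. The translation repressors split: *Eif4ebp1* rose by 0.79 on the log2 scale (adjusted p = 0.0315), while *Eif4ebp2* fell by 1.64 (adjusted p = 0.0159) and *Pdcd4* by 0.87 (adjusted p = 0.00766). *Rps6kb1*, the gene of the S6 kinase, fell from 74.4 ± 4.35 to 42.1 ± 7.60 CPM (-0.91, SE 0.18, adjusted p = 0.00380), and *Gsk3b* from 323 ± 75.8 to 147 ± 19.1 CPM (-1.23, SE 0.18, adjusted p = 0.000526). *Hif1a*, whose translation mTORC1 raises, fell by 0.66 (adjusted p = 0.0170). *Lpin1*, a phosphatidate phosphatase that mTORC1 phosphorylates, rose from 3.17 ± 0.979 to 10.5 ± 1.96 CPM (1.63, SE 0.39, adjusted p = 0.0105), and *Ulk1*, the kinase that starts autophagy, rose by 0.81 (adjusted p = 0.0313). GC and length offsets ended 9 of these 16 calls: *Rictor* was then at -0.027 (adjusted p = 0.954), *Hif1a* at -0.16 (0.589), *Pik3r1* at -0.32 (0.286), *Rps6kb1* at -0.34 (0.239) and *Sesn3* at -0.92 (0.152), and *Akt1* at 0.78 (0.0855), *Depdc5* at -0.88 (0.0848), *Ulk1* at 0.71 (0.0740) and *Pik3r5* at 0.50 (0.0983). Leaving out each library in turn kept the calls of 9 of the 16 genes, which include *Pik3r1* and *Rps6kb1*. Of the others, *Eif4ebp1*, *Pik3r5* and *Rictor* lost theirs in 6 of 8 such fits, *Ulk1* in 5, *Sesn3* in 4, *Hif1a* in 2 and *Eif4ebp2* in 1. *Fnip2*, *Lpin1* and *Sesn2* kept theirs in every alternative fit that tested them.

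Between the subsets 42 of 80 pathway genes were called in WT mice, 30 higher and 12 lower in G-MDSCs (52.5%). In *Nlrp3-/-* mice 44 of 79 were called, 28 higher and 16 lower (55.7%). The shares in either direction were near those of all genes, 53.3% in WT and 51% in *Nlrp3-/-* mice. All genes were split more evenly by direction, 26.3% higher and 27.1% lower in WT and 23.7% and 27.4% in *Nlrp3-/-* mice. The lists were chosen with earlier results known, and this split was not tested. *Prr5l* was 3.02 and 3.27 higher on the log2 scale in G-MDSCs (adjusted p = 5.87e-08 and 4.31e-09 in WT and *Nlrp3-/-* mice). *Deptor*, an inhibitor that binds mTOR, was at 94.6 ± 8.44 CPM in WT M-MDSCs and 7.16 ± 4.38 CPM in WT G-MDSCs, and at 130.0 ± 32.3 and 3.87 ± 3.62 CPM in *Nlrp3-/-* mice, with log2 fold changes of -3.73 and -5.17 (adjusted p = 1.24e-06 and 2.19e-07). *Larp1*, an RNA-binding mTORC1 substrate, had log2 fold changes of -1.72 and -1.57 in G-MDSCs (adjusted p = 3.58e-06 and 4.40e-06). By the size of p the leading genes also held *Eef2k* (2.92, adjusted p = 1.95e-07) and *Lpin1* (-3.03, adjusted p = 3.43e-06) in WT mice, and *Ulk1* (1.96, adjusted p = 1.40e-06) and *Slc38a9*, a lysosomal arginine sensor (-1.45, adjusted p = 1.65e-05), in *Nlrp3-/-* mice.

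Across the 16 libraries, with the mean of each subset subtracted from log2 CPM, the 3 genes most like *Lamtor1* among 10695 were *Laptm4a* (Pearson r = 0.96), *Rmnd5b* (0.96) and *Uqcrq* (0.96), and those most like *Akt2* were *Srf* (0.97), *Usf2* (0.97) and *Hint1* (0.96). These correlations describe points that share genotype, mice and library scale. *Lamtor1* and *Akt2* correlated with each other at r = 0.90, at rank 79 of the genes for *Lamtor1* and 114 for *Akt2*, and *Lamtor1* with *Lamtor5*, *Lamtor4* and *Rraga* at 0.83, 0.79 and 0.76. Its correlation with *Lamtor2* was -0.10.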

How the data were processed

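Splenic cells of both subsets were profiled; both libraries of a number carry the same spleen identifier in the sample descriptions and are taken as 1 mouse. The authors mapped QuantSeq reads to mm10 with hisat2 (2.1.0) and deposited raw counts per gene symbol from htseq-count by strand, 1 file for each library. Per the submitters' notes edgeR 3.14.0 was used downstream.

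From these counts genes were filtered with filterByExpr, scaled by TMM and tested with edgeR 4.0.16 (R 4.3.3), by the quasi-likelihood test on the 8 libraries of each comparison (all 16 for the interaction); p-values were Benjamini-Hochberg adjusted over all genes tested, with thresholds of 0.05 and 1.5-fold (no fold minimum for the interaction). Intervals are the estimate and its SE with the test's degrees of freedom. The levels are CPM after TMM over the 16 libraries, and log2 CPM used a prior count of 2. The fitting was tested on simulated data. Totals of 2295967 to 6079866 counts set the counting precision: 3 counts were worth 0.349 to 1.17 CPM, a floor for counting error only. No pair of libraries of a group was identical (0 of 24 pairs).

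Each replicate is a separate mouse. The main fits, also those between subsets and of the interaction, held no term for the mouse. The deviations of M-MDSC and G-MDSC libraries with the same identifier from the group means correlated at 0.097 to 0.397 in WT and 0.00821 to 0.382 in *Nlrp3-/-* mice. WT and *Nlrp3-/-* mice of the same number are different mice, and whether they shared a day of sorting or a batch is not given.

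The members, the pathway and marker lists, and the tests were chosen with earlier results of these data known. The genes named are the 10 members, pathway genes called in a genotype comparison, the 3 called pathway genes with the smallest p in each direction between subsets, and the 3 genes most correlated with *Lamtor1* and with *Akt2*. A pathway gene that this rule names between subsets is not reported here. Alternatives were other scalings and filters, DESeq2 1.42.0, the edgeR exact test, a model of all 16 libraries, a replicate block, GC content and length offsets (splines of 4 degrees of freedom, longest protein-coding transcript of GENCODE M21, 98.5% of symbols matched) and each library left out. The use of the longest transcript of any type was added after seeing the data. Figures were drawn with matplotlib.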

Additional observations from a re-analysis of the deposited data

Results flagged for a closer look

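Over 10 genes in 4 groups, 40 sets of 4 libraries were searched for a library far from the other 3 of its group, and 2 were found; chance alone gives about 1 in 20. *Lamtor2* was at 17.8 CPM in WT M-MDSC replicate 4, against 11.3 to 12.1 CPM in the other 3 libraries. *Rheb* was at 8.73 CPM in WT M-MDSC replicate 1, against 17.8 to 19.3 CPM in the others. Neither gene passed in a genotype comparison.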

How the results depend on the processing

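In the genotype comparisons the numbers called changed with several settings. In M-MDSCs 425 genes and 0 members were called with the replicate block (*Lamtor1* adjusted p = 0.0503, *Akt2* 0.0559), 652 genes and 1 member with GC content and length offsets, and 37 genes and 0 members with both. In G-MDSCs these counts were 985 genes with the block, where *Akt2* was lost (adjusted p = 0.0537), 981 with the offsets, and 384 genes and 1 member (*Rraga*) with both. The block joins different mice by their number, and the labels do not say whether mice of the same number shared a day of sorting. WT and *Nlrp3-/-* libraries of the same number deviated together by a correlation of -0.45 to 0.02 in M-MDSCs and -0.26 to -0.04 in G-MDSCs. These correlations of 4 pairs in each subset cannot show whether the mice shared a day or batch. Offsets from the longest transcript of any type, chosen after seeing the data, left 668 and 965 genes; with them 3 members were called in M-MDSCs, *Lamtor1* (0.71, adjusted p = 0.0201), *Akt2* (0.70, 0.0371) and also *Rheb* (0.85, 0.0470), and the protein-coding and the longest transcript of *Lamtor1* differ. The model of all 16 libraries left 1 member in M-MDSCs. The causes of the losses were not tested. Of the pathway genes called, the block ended 3 of 4 calls in M-MDSCs and 6 of 16 in G-MDSCs, and the block with offsets 4 of 4 and 13 of 16.

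Between the subsets library size alone called 8 members in WT mice (6227 of 9739 genes) and 6 in *Nlrp3-/-* mice (6180 of 10071 genes). A minimum of 10 counts in every library called 1 member in each (3900 of 7341 and 4054 of 7601 genes). The mouse block with offsets called 4 in *Nlrp3-/-* mice (5369 of 10071 genes). The replicate block alone changed neither the *Akt2* nor the *Rptor* call. The interaction was called for 5 genes without a filter, 8 with DESeq2 and 5 with the block and offsets, and for no member in any fit run.

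Leaving out each library in turn gave 0 to 2 members and 450 to 1783 genes in M-MDSCs, 1 to 3 members in G-MDSCs, and 2 to 5 genes in the interaction. In M-MDSCs the gene count moved by over 1.5 times without WT replicate 2 (514), 3 (669) or 4 (473) and without *Nlrp3-/-* replicate 1 (1783), 3 (702) or 4 (450); members fell to 1 without WT replicate 2 or 4 and to 0 without *Nlrp3-/-* replicate 4. In G-MDSCs 1 member was left without *Nlrp3-/-* replicate 2, 3 or 4.

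Directions turned for members that were not called. For *Nlrp3-/-* against WT in M-MDSCs, *Lamtor3* was at 0.035 with library size only and 0.096 with the offsets of any transcript, *Rptor* at 0.087 with library size, 0.0087 with upper-quartile scaling, 0.0029 without a filter and 0.041 with the replicate block, and *Lamtor2* at -0.23, -0.24 and -0.22 with the offsets, the block with offsets and the offsets of any transcript. In G-MDSCs *Lamtor2* was at -0.35, -0.35 and -0.33 with the same 3 settings. For G-MDSCs against M-MDSCs in WT mice, *Rheb* was at -0.14 with library size, *Lamtor4* at 0.16, 0.165 and 0.094 and *Lamtor5* at 0.0084 and 0.013 with the offsets in that order. In *Nlrp3-/-* mice library size gave -0.58 for *Lamtor1*, -0.33 for *Lamtor3*, -0.29 for *Rraga*, -0.60 for *Rheb* and -0.73 for *Mtor*, and upper-quartile scaling -0.011 for *Lamtor1*, -0.034 for *Rheb* and -0.16 for *Mtor*. *Mtor* was also at -0.026 without a filter, -0.054 with the minimum of 10 counts, -0.12 with the replicate block and -0.047 with block and offsets, and *Lamtor4* at 0.059 in the model of all 16, 0.14 and 0.15 with offsets without and with the block, and 0.082 with those of any transcript. In the interaction *Lamtor5* was at -0.078, -0.082 and -0.043 with DESeq2 size factors, library size and upper-quartile scaling, -0.0024 with the minimum of 10 counts, -0.075 with DESeq2, and -0.13, -0.12 and -0.11 with the 3 offset settings, *Lamtor2* at -0.039, -0.039 and -0.020 with those, and *Lamtor4* at -0.00072 and -0.0020 with the first 2.

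With a library left out, log2 fold changes that crossed 0 ranged as follows. In M-MDSCs, *Lamtor3* ranged from -0.44 to 0.16, *Rptor* from -0.12 to 0.16 and *Lamtor2* from -0.13 to 0.24. In G-MDSCs, *Rheb* ranged from -0.12 to 0.35, *Lamtor2* from -0.038 to 0.21 and *Mtor* from -0.0057 to 0.70. Between subsets in WT mice, *Lamtor4* ranged from -0.28 to 0.061, *Rraga* from -0.47 to 0.012 and *Mtor* from -0.39 to 0.021; in *Nlrp3-/-* mice *Lamtor4* ranged from -0.16 to 0.062 and *Mtor* from -0.41 to 0.32. In the interaction, *Lamtor4* ranged from -0.076 to 0.31, *Lamtor5* from -0.22 to 0.090, *Lamtor2* from -0.087 to 0.32, *Akt2* from -0.14 to 0.41 and *Mtor* from -0.13 to 0.59. At 7 to 14 counts of *Rptor* in each G-MDSC library, its genotype difference in that subset was not measurable to better than the interval given.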
